A study of Mus musculus with 29 samples.

Results

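The data described here are 8 of the 29 RNA-seq libraries of the series. All came from stem cells sorted from mouse bone marrow as lineage-negative, cKit-positive, Sca1-positive and positive for CD150, a surface receptor that marks the compartment with most long-term stem cells. The members were chosen by their labels. A1, A2, A3 and A4 were labelled Mysm1-/-Puma+/-, and D1, D2, D3-4 and W1 were labelled wild type at both genes. The mice were C57BL/6 animals of 8 to 12 weeks, with both sexes pooled in the labels, and received no treatment named there. The other 21 libraries are further genotypes of the same sort and the CD150-negative sort. The group that lacks Mysm1 also carried 1 null copy of Puma, so loss of Mysm1 and loss of that copy cannot be told apart in the comparison of 4 with 4. The labels do not say how the alleles were made or that the libraries came from separate animals, so p-values measure only how much these libraries vary, and part of that may be technical. The name D3-4 joins 2 sample numbers, and whether it was a pool is not stated. In RNA of sorted populations, fewer cells of a type and less RNA per cell cannot be told apart.

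MYSM1 is a deubiquitinase that removes ubiquitin from histone H2A, a mark placed by Polycomb complexes, and its loss is known to cause bone marrow failure in mice and humans. The transcription factor p53 answers DNA damage and other stress by raising genes that stop the cell cycle and genes that start cell death. PUMA, the product of Bbc3, is a p53 target of the second kind that releases the pore-forming proteins of mitochondrial apoptosis, and blood stem cells are sensitive to its level.

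The 8 libraries held 12304713 to 35034318 counted reads over 23366 genes. Receptor genes of smell and pheromone sensing, taken as a measure of background reads, made up 1391 to 3415 CPM (reads scaled to library size) in A1 to A4 and 2542 to 8116 in the wild-type libraries, with D2 the highest. A2 carried Xist at 348 CPM and Ddx3y at 0.589, whereas the other 7 libraries had Xist at 12.6 CPM or less and Ddx3y at 61.7 or more. The labels state that sexes were matched between groups, and by these transcripts 1 A library and 0 wild-type libraries were female, so A2 did not come from the same animal as the others. Fos, an immediate early gene, stood at 218 CPM in W1 and at 4.56 CPM or less in the other 7. Outside the compared groups, Fos was at 11.5, 62.3 and 120 CPM in the Mysm1-/-Puma-/- libraries P1, P2 and P3. In the remaining CD150-positive libraries outside these groups it was at 1.55 to 3.54 CPM. The gate markers Kit, Slamf1 and Ly6a summed to 581 to 752 CPM in A1 to A4 and 508 to 720 in wild type, and 0 of the 3 passed the test. Globin genes of red cells were at or near 0, with Hba-a2 and Hbb-b2 at 0 in all 8. How multiply aligned reads were handled is not given in the sources used here, so these globin counts are uncertain. The whole erythroid marker list, led by Car2, Car1 and Tfrc, summed to 828 to 1770 CPM in A1 to A4 and 1060 to 1580 in wild type. Of its 14 tested members, 0 were called. The 6 plasma cell markers, led by Igj, spanned 93.2 to 823 CPM in A1 to A4 and 86.3 to 245 in wild type.

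The targeted gene came first. Mysm1 (chr4:94608731-94645791 on the minus strand of mm9) was at 118, 101, 103 and 96.3 CPM in A1 to A4 and at 111, 118, 125 and 123 CPM in D1, D2, D3-4 and W1. The groups overlapped, and the log2 fold change of -0.19 ± 0.13 (SE) did not pass the test (edgeR quasi-likelihood test, Benjamini-Hochberg adjusted p = 0.668). Which exons the allele removes is not given in the sources used here, so a count over the whole gene does not check the labels. The groups are therefore named by their labels throughout. Bbc3 (chr7:16894965-16903554, plus strand), of which the A libraries carry 1 intact copy by their labels, was at 18.5, 19.2, 24.9 and 18.6 CPM in A1 to A4. It was at 4.16, 3.36, 2.86 and 4.63 CPM in the wild-type libraries. Every A library lay above every wild-type library, at a log2 fold change of 2.43 ± 0.23 and an adjusted p of 4.57e-06 in edgeR, the smallest of all genes together with that of Psrc1.

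Few genes were called, and most of them rose. Of 20944 genes tested, 78 rose and 17 fell at an adjusted p under 0.05 by edgeR, which is 0.372% and 0.0812% of the genes and 0.454% together. With DESeq2 the split was 155 higher and 89 lower, and with the 8 libraries fitted alone it was 44 and 8. The 4 A libraries and the 4 wild-type libraries shared no range of CPM for 1130 genes, 5.4% of those tested, 621 of them higher (2.97%) and 509 lower (2.43%) in A. All 17 falls and 77 of the 78 rises were among them, and Clec4e was the exception. The median log2 fold change was 1.39 over the rises, -1.56 over the falls and -0.05 over all genes. By edgeR, 1824 of the 20944 genes had an unadjusted p under 0.05, and 9662 had a positive log2 fold change. Over the rises, the median deviation from the wild-type mean was 1.58 in A1, 1.38 in A2, 1.34 in A3 and 1.17 in A4 on the log2 scale. Over the falls it was -1.49, -1.83, -1.54 and -1.12. These genes were called from the same 8 libraries, so the signs of these medians follow from the choice of genes. Leaving out each of the 8 libraries in turn kept 45 of the 78 rises and 6 of the 17 falls in all 8 repeats.

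**Figure D1:**
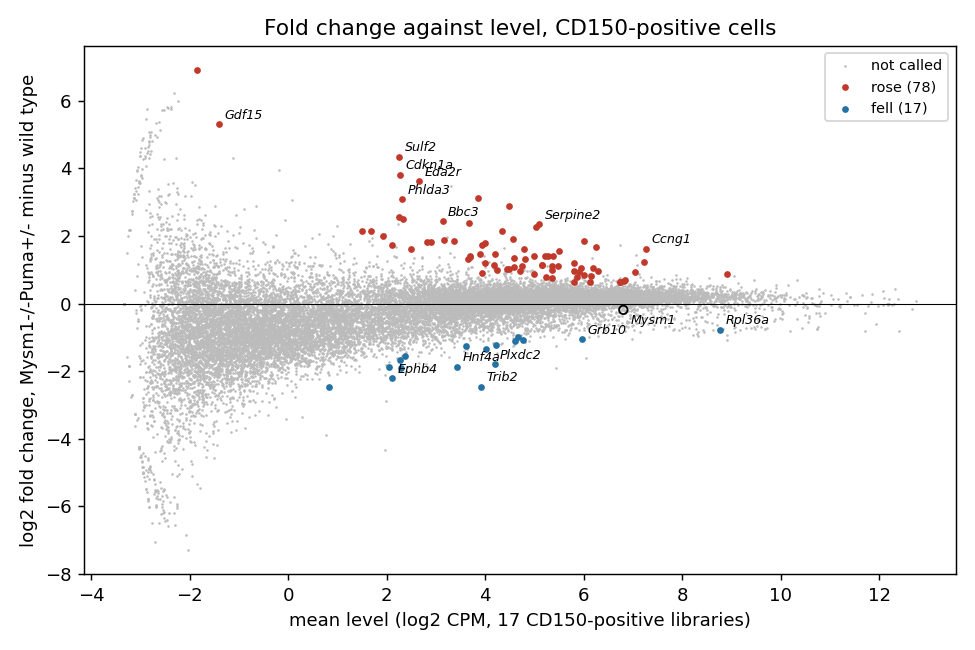
Each point is 1 of 20944 genes, with its mean level on the x axis and the log2 fold change of Mysm1-/-Puma+/- over wild type on the y axis. The mean level is log2 CPM over the 8 compared libraries, although the axis label names the 17 CD150-positive libraries of the fit. Red points are the 78 genes that rose, blue points the 17 that fell, and the open circle is Mysm1; the rises reach further from 0 than the falls at levels above 4 log2 CPM.

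Genes known as p53 targets made up 14 of the 78 rises. Of 56 such genes tested from lists of arrest, death, and repair or metabolic targets, these were 25% beside 0.372% of all genes, and 1 fell. Their median log2 fold change was 0.54 beside -0.05 for all genes. For 21 of the 56 every A library was above every wild-type library, beside 2.97% of all genes. The lists were drawn up with earlier results of these data known, so their counts describe the genes and are no independent evidence.

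Of the 15 arrest targets, 3 rose and 0 fell. Cdkn1a, which encodes the cyclin-dependent kinase inhibitor p21, was at 24.6, 20.8, 19.5 and 11.9 CPM in A1 to A4 and at 1.5, 1.20, 0.396 and 2.33 in the wild-type libraries in the order D1, D2, D3-4, W1. The lowest A library lay well above the highest wild-type library, and the log2 fold change was 3.81 ± 0.37 (adjusted p = 5.33e-06, edgeR). Psrc1, a microtubule-binding protein, was at 78.6, 67.8, 93.9 and 52.5 CPM in A1 to A4 and at 17.9, 12.2, 14.4 and 15.9 in wild type. Ccng1, cyclin G1, which takes part in feedback on p53, was at 316, 250, 308 and 214 CPM and at 79.9, 84.8, 105 and 82.8. The log2 fold changes were 2.27 ± 0.21 for Psrc1 and 1.62 ± 0.16 for Ccng1. The remaining 12 arrest targets did not pass.

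Death targets made up the largest group, with 7 rises and 1 fall among 18 tested and a median log2 fold change of 0.72. Bbc3 is described above. Bax, the pore-forming effector on which PUMA acts, was at 49.6, 51.9, 45.6 and 31.2 CPM in A1 to A4 and at 17.4, 15.7, 21.1 and 16.7 in wild type. The groups stayed apart, at a log2 fold change of 1.33 ± 0.18 (edgeR, adjusted p = 0.00024). Apaf1, the scaffold of the apoptosome that acts after the pore opens, was at 72.4, 70.2, 85.5 and 74.7 CPM against 42.7, 45.0, 43.7 and 45.9, a smaller difference of 0.77 ± 0.14 between 2 tight groups. Phlda3, which competes with the kinase Akt for the membrane, was at 18.5, 18.5, 15.9 and 10.1 CPM against 2.44, 2.24, 0.352 and 2.42. Zmat3, an RNA-binding zinc finger protein that acts on splicing, was at 86.7, 80.1, 69.8 and 75.2 CPM against 24.2, 40.9, 23.4 and 18.9. Trp53inp1, a stress protein that promotes p53-dependent death, was at 145, 120, 161 and 125 CPM against 40.8, 26.8, 48.2 and 57.0. Eda2r, a receptor that binds a form of ectodysplasin, was at 36.2, 26.0, 34.0 and 25.3 CPM against 4.22, 1.52, 4.14 and 0. In each of these 4 genes every wild-type library lay below every A library, and the log2 fold changes were 3.09, 1.54, 1.67 and 3.61. Pmaip1, which encodes the BH3-only protein NOXA, was at 7.62, 6.57, 6.78 and 3.80 CPM against 2.28, 1.12, 0.793 and 3.28, without overlap, yet its adjusted p was 0.290. Ptpn14, a tyrosine phosphatase that restrains the transcriptional coactivator YAP, was the member that fell and is given with the falls.

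Among 23 repair and metabolic targets 4 rose and 0 fell. Ak1, adenylate kinase 1, which balances adenine nucleotides, was at 53.4, 47.5, 44.2 and 41.1 CPM in A1 to A4 and at 17.2, 10.0, 7.84 and 14.3 in wild type, a log2 fold change of 1.91 ± 0.22. Sesn2, a sestrin that restrains the growth kinase mTORC1, was at 17, 13.5, 14.8 and 9.52 CPM against 5.22, 2.24, 2.77 and 5.08. Cpt1c, a carnitine palmitoyltransferase, was at 4.72, 5.15, 10.8 and 8.00 CPM against 1.39, 0.721, 2.95 and 1.26, with an adjusted p of 0.0136 that rose to between 0.0574 and 0.0678 without A3, D1, D2 or W1. Gdf15, a secreted stress cytokine, had 121 reads in A1 to A4 and 2 reads in wild type, all in D3-4. The pooled ratio was 45.0, with a 95% counting interval of 12.2 to 375 that covers counting error only. Its adjusted p of 0.0078 became 0.058 without the P and W libraries and 0.135 with the 8 libraries fitted alone.

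**Figure D2:**
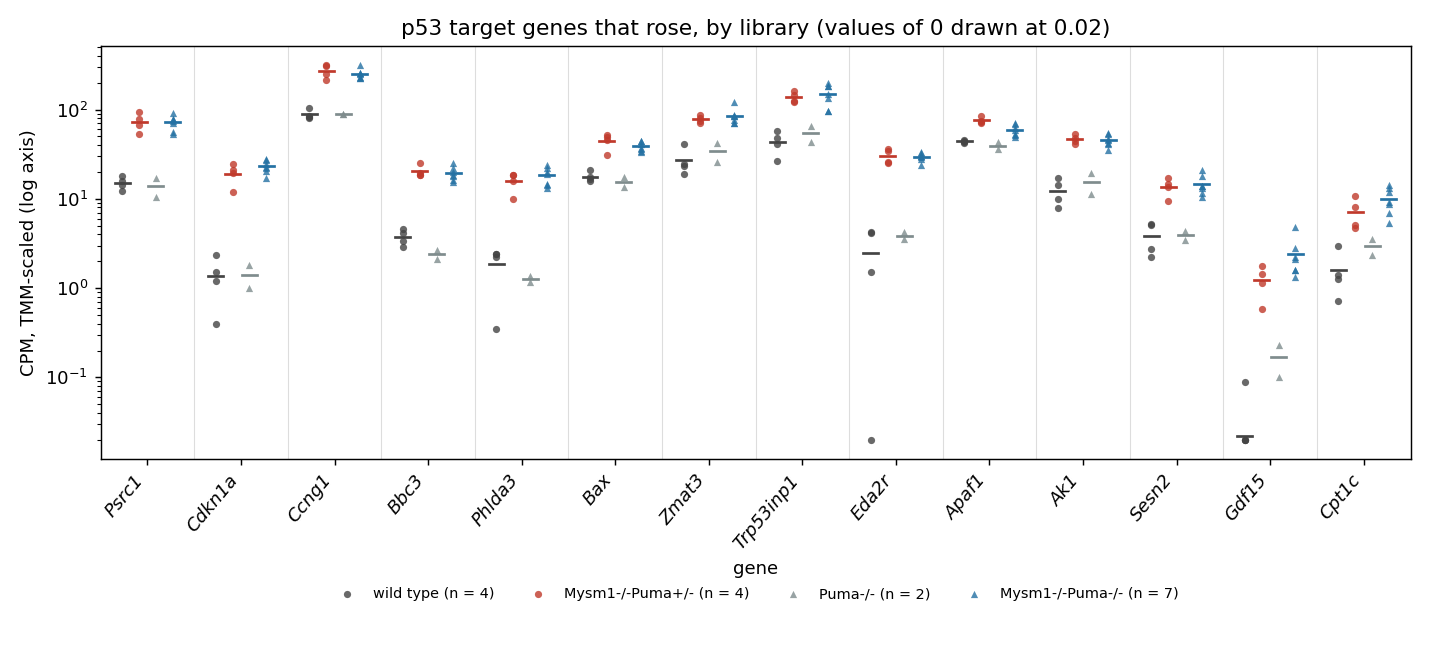
Each point is 1 library and each short bar a group mean, on a log axis of TMM-scaled CPM, for the 14 p53 target genes that rose in Mysm1-/-Puma+/- (red, n = 4) over wild type (grey circles, n = 4). Puma-/- (grey triangles, n = 2) and Mysm1-/-Puma-/- libraries (blue, n = 7) are shown beside them; the red points lie above the grey circles in all 14 genes, and the blue points above the grey triangles.

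The genes that set p53 activity were not called. Trp53 was at 68.2, 57.3, 63.3 and 50.4 CPM in A1 to A4 and at 55.2, 49.6, 69.8 and 51.1 in wild type, with overlapping groups and a log2 fold change of 0.08 ± 0.17. Of 14 regulators, 0 passed the test by edgeR. Since 0.454% of all genes passed, a count of 0 does not show that these were unchanged. Mdm2, the ubiquitin ligase that degrades p53 and is itself its target, came nearest, at 136, 97.5, 148 and 131 CPM against 86.1, 61.7, 81.8 and 101. Only A2 lay within the wild-type range, and the adjusted p was 0.141 at a log2 fold change of 0.63 ± 0.17. Outside the p53 targets, 0 of 17 further BCL2 family genes passed in either direction. Bcl2l1, which encodes the survival protein BCL-XL, was nearest, at 31.4, 29.9, 20.9 and 23.8 CPM against 19, 16.5, 20.4 and 18.7 (adjusted p = 0.435, edgeR). Among 9 caspases outside the target lists 2 rose, both of the inflammatory kind. Casp1, the protease of the inflammasome, was at 58.1, 60.5, 48.5 and 40.9 CPM against 21.0, 14.7, 24.8 and 17.9, a log2 fold change of 1.41 ± 0.19. Casp12 was at 53.9, 43.8, 58.6 and 58.7 CPM against 27.6, 15.4, 26.3 and 28.5.

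Since p53 targets rose together, the sequence around the 5′ end of each gene was searched for p53 binding sites. A site was 2 adjoining elements of 10 bases within 3 kb on either side, each with the core CNNG at its fixed place, and with at most 2 mismatches from the published p53 consensus at the other positions. The consensus reads alike on both strands. The genome was NCBIM37, the build named mm9 by the submitters, with GENCODE vM1 genes. The sequences below are the matches of rising genes with 0 or 1 mismatch, except those of Gm16197 and Pvt1, and that of Bax, read in the direction of the gene, with the core of each element in capitals.
Zmat3 (chr3:32263253-32263272, minus strand, intron, 0 mismatches): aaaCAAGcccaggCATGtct
Csnk1g1 (chr9:65757831-65757850, plus strand, intron, 0 mismatches): agaCATGtttaggCAAGcct
Cdkn1a (chr17:29227873-29227892, plus strand, upstream, 1 mismatch): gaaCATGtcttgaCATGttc
Ccng1 (chr11:40568964-40568983, minus strand, upstream, 1 mismatch): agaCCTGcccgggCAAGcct
Ccng1 (chr11:40568438-40568457, minus strand, intron, 1 mismatch): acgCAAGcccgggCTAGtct
Psrc1 (chr3:108187574-108187593, plus strand, intron, 1 mismatch): gggCATGttgaggCATGccc
Gdf15 (chr8:73155865-73155884, minus strand, untranslated exon, 1 mismatch): tgaCTTGcctgaaCTTGcct
Mmp2 (chr8:95350254-95350273, plus strand, upstream, 1 mismatch): gggCAAGtctgaaCTTGtca
Bax (chr7:52721944-52721963, minus strand, untranslated exon, 2 mismatches): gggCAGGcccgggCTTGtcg

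Matches with at most 2 mismatches were found at 19 of the 77 rises with 1 annotated position (24.7%), at 0 of 17 falls and at 6.26% of all 19124 tested genes with such a position. With at most 1 mismatch the shares were 9 of 77 rises (11.7%) and 1.06% of all genes. Among the 14 rises on the p53 target lists 7 held a match, and among the 63 rises on none of those lists 12 did (19%). The p53 targets that were not called held one in 8 of 41 genes (19.5%). Matches with 1 mismatch also lay near Pvt1, a long noncoding RNA beside Myc, and Gm16197, a long noncoding RNA at chr17:29194419-29215906 that lies upstream of Cdkn1a on the other strand. Gm16197 rose, at 9.40, 6.87, 18 and 14.4 CPM in A1 to A4 against 2.05, 2.08, 1.76 and 2.65 in wild type, and both genes of that neighbourhood therefore rose. Pvt1 was at 14.2, 11.4, 20.9 and 15.7 CPM against 1.72, 1.92, 6.34 and 7.59, and its adjusted p of 0.0249 rose to between 0.0527 and 0.103 without A1, A3, D1 or D2. A match describes letters in the window and does not show that p53 was bound there.

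Genes of secreted and matrix-modifying proteins included some of the largest rises. Sulf2, an extracellular sulfatase that trims heparan sulfate, was at 33.2, 30.1, 20 and 12.0 CPM in A1 to A4 and at 0.278, 2.48, 0.617 and 1.48 in wild type, a log2 fold change of 4.34 ± 0.48 (adjusted p = 3.15e-05, edgeR). Mmp2, a metalloproteinase that cuts denatured collagen, was at 36.1, 22.8, 33.1 and 26.8 CPM against 7.10, 3.12, 5.51 and 6.96, a log2 fold change of 2.38 ± 0.26. Serpine2, a serine protease inhibitor of the cell surface, was at 71.9, 77.0, 95.5 and 77.0 CPM against 11.8, 21.7, 22.3 and 7.77. These 3 were the members of 24 tested that rose, 0 fell, and the median of the list was -0.70, against the direction of its called members. The gene body of Sulf2 overlaps Ncoa3 on the other strand, and whether the counting used strand is not given in the sources used here. The receptor-gene reads were 1391 to 3415 CPM in A and 2542 to 8116 in wild type, and their part in the median of the list was not tested.

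Several surface proteins and adaptors of immune and blood cells rose. Tnfsf4, the ligand of OX40, was at 18.6, 18.2, 16.4 and 15.1 CPM in A1 to A4 and at 4.16, 4.8, 4.93 and 4.54 in wild type, 2 tight groups with a log2 fold change of 1.89 ± 0.22. Selp, P-selectin, an adhesion receptor of platelets and endothelium, was at 29.3, 45.6, 42.7 and 57.3 CPM against 14.3, 8.97, 9.29 and 6.92, a log2 fold change of 2.15 ± 0.26 (adjusted p = 9.13e-05, edgeR). Cd244, a receptor of the family to which CD150 belongs, was at 38.5, 26.1, 31.2 and 22.4 CPM against 8.27, 8.81, 7.27 and 10.1. Lat2, an adaptor of immune receptors, was at 60.4, 41.6, 49.9 and 43.8 CPM against 15.9, 15.6, 12.6 and 19.9. All 4 kept their call without any single library of the 8.

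The class II antigen-presentation genes H2-Eb1 and H2-Ab1 rose as well. H2-Eb1 was at 29.4, 16.2, 44.6 and 25.9 CPM against 9.32, 7.13, 10.8 and 7.46, and H2-Ab1 at 72.3, 55.4, 92.6 and 56.3 against 31.4, 21.7, 25.1 and 25.4. The call of H2-Ab1 ended without A3, D2, D3-4 or W1, at adjusted p values of 0.0619, 0.0631, 0.0578 and 0.0522. The call of H2-Eb1 held without any single library but ended in limma voom with quality weights (adjusted p = 0.148) and without B5, C2-5 and D2 (0.0786, edgeR). Summed markers of cells that carry class II proteins overlapped between the groups. The 8 B cell markers summed to 6.43 to 20.5 CPM in A and 17.7 to 21.2 in wild type, the 6 dendritic cell markers to 43.2 to 101 and 64.5 to 133, and the 10 monocyte and macrophage markers to 106 to 325 and 227 to 583. In none of these 3 lists did a member pass, and their part in the rises of H2-Eb1 and H2-Ab1 was not tested.

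Megakaryocyte and platelet genes leaned upward, with 2 rises, 0 falls and a median log2 fold change of 0.67 over 23 tested, 21 of them positive. Besides Selp, Clec1b, the platelet receptor CLEC-2, rose, at 2.88, 4.32, 11.9 and 13.6 CPM in A1 to A4 against 1.78, 2.64, 1.94 and 1.80, with A3 and A4 apart from A1 and A2. Its adjusted p of 0.0442 held only without A1 or A2 and otherwise went up to between 0.0795 and 0.170. Pf4, platelet factor 4, had an adjusted p of 0.0624 at a log2 fold change of 1.73. The 10 megakaryocyte markers summed to 460 to 938 CPM in the A libraries and 184 to 419 in wild type with no overlap, and 0 of the 10 passed. Their part in the rises of Selp and Clec1b was not tested.

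Further rises spread over repair, transport and signalling. Mgmt, which removes alkyl groups from guanine, was at 21.0, 24.2, 22.3 and 17.1 CPM in A1 to A4 and at 4.88, 8.89, 9.12 and 8.98 in wild type. Slc19a2, a thiamine transporter, was at 22.4, 19.6, 21.6 and 16 CPM against 11, 8.49, 6.61 and 5.93. Exoc4, a subunit of the exocyst that tethers secretory vesicles, was at 250, 217, 262 and 198 CPM against 109, 76.3, 120 and 90.0. In these 3 genes the groups did not overlap. Gria3, a glutamate receptor subunit, Ptp4a3, a phosphatase, St3gal2, a sialyltransferase, and Csnk1g1, a casein kinase, rose by log2 fold changes of 1.45, 1.06, 1.03 and 0.99. Bmp2k, a kinase linked to endocytosis, rose by 1.06, Glipr1 by 1.20 and Fam212b by 1.85, the last with an adjusted p of 0.0539 when the 8 libraries were fitted alone. Gem, a small GTPase that inhibits calcium channels, was at 139, 101, 25.6 and 23.1 CPM against 9.44, 9.61, 5.42 and 14.7, with A1 and A2 far above A3 and A4. A930001C03Rik, named after its values were seen, had 68 reads in A1 to A4 and 0 in wild type. Against a floor of 3 reads over the wild-type group it was at least 16.8-fold higher. Its call ended in limma voom with quality weights (adjusted p = 0.056) and when the P and W libraries were left out (0.0691).

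Most proliferation genes leaned upward by small amounts, and few were called. The lean was not particular to them. Medians were 0.163 over 39 oxidative phosphorylation subunits, all positive, and 0.119 over 30 ribosome biogenesis genes, 22 of them positive. Other lists leaned downward, such as Eph receptors and ephrins at -0.765. The cause of these leans was not tested. Ccnd1, cyclin D1, which drives entry into the cycle, rose, at 104, 77.3, 37.1 and 37.3 CPM in A1 to A4 against 25.2, 20.9, 31.0 and 19 in wild type. A1 and A2 were again the high libraries, and the log2 fold change was 1.41 ± 0.26 (adjusted p = 0.00748, edgeR). The call ended with the 8 libraries fitted alone (0.111), with the P and W libraries left out (0.0638) and without B5, C2-5 and D2 (0.0608). It was the 1 gene called of 21 cyclins, kinases and inhibitors of G1. Of 37 mitosis genes 0 passed, 33 had a positive value, and the median was 0.25. Mad2l1, a checkpoint protein with the smallest p of that list, was at 72.4, 58.4, 43.8 and 24.8 CPM against 40.5, 36.2, 33.3 and 27.4, so that the A libraries spanned a wider range than wild type. Of 35 DNA replication genes 0 passed, 32 had a positive value, and the median was 0.16 beside -0.05 for all genes. Rrm2, a ribonucleotide reductase subunit, was nearest, at 96.5, 98.5, 78.5 and 41.0 CPM against 53.3, 51.1, 57.1 and 44.2.

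No gene list held more than 2 of the 17 falls. Grb10, an adaptor that dampens insulin and other receptor kinases, had the smallest p of them, at 45.5, 43.0, 41.5 and 42.5 CPM in A1 to A4 and at 90.1, 74.7, 94.2 and 100 in wild type. The A libraries were nearly alike, and the log2 fold change was -1.06 ± 0.15 (adjusted p = 0.000514, edgeR). Plxdc2, a membrane protein, was at 8.60, 8.54, 11.2 and 12.2 CPM against 30.1, 20.8, 32.3 and 57.7, a log2 fold change of -1.80 ± 0.27. Hnf4a, a nuclear receptor best known from liver, was at 5.95, 4.42, 5.42 and 6.84 CPM against 25.4, 16, 16.1 and 25.4. Trib2, a pseudokinase that promotes breakdown of C/EBPα, was at 2.27, 2.16, 14.9 and 11.4 CPM against 36.1, 37.8, 51.0 and 43.4, with A1 and A2 lowest. Ephb4, a receptor of ephrin-B2, was at 1.97, 0.981, 3.02 and 2.28 CPM against 5.55, 7.69, 11.7 and 13.3. Serpinf1, a secreted protein that opposes vessel growth, was at 14.7, 8.24, 7 and 11.8 CPM against 32.0, 18.3, 29.6 and 25.1. These 6 were the falls that passed without any single library, and in all 6 the groups lay apart. With the 8 libraries fitted alone, Trib2 lost its call (adjusted p = 0.0637, edgeR).

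The other 11 falls had adjusted p values of 0.0194 to 0.0496 and lost their call without at least 4 of the 8 libraries. Socs2, a feedback inhibitor of cytokine receptors, was at 2.98, 4.32, 2.10 and 1.70 CPM in A1 to A4 against 6.33, 6.73, 10.9 and 11.5 in wild type, and it kept its call only without A2 or D1 (adjusted p up to 0.157 otherwise). Ets1, a transcription factor of lymphoid cells, was at 22, 11.8, 17.4 and 16.4 CPM against 46.7, 31.4, 30.2 and 36.8, and passed only when all 8 libraries or all but A1 were used (adjusted p up to 0.191). Ptpn14 was at 12.0, 6.77, 15.7 and 15.9 CPM against 25.8, 22.1, 37.3 and 32.2, and it kept its call only without A4 or D2 (up to 0.158 otherwise). Jam3, a junction protein used as a stem cell marker, was at 3.31, 2.40, 2.14 and 4.16 CPM against 9.60, 6.89, 9.34 and 9.75, and kept its call only without A4 or D2. Rpl36a and Rpl22l1, proteins of the large ribosomal subunit, fell by 0.77 and 1.08 on the log2 scale. Rpl36a was at 393, 321, 349 and 277 CPM against 543, 535, 731 and 479 and kept its call only without W1, with an adjusted p of up to 0.214 otherwise. Ribosomal protein genes have many near-identical copies, so their counts are uncertain. Zfp651, Rftn2, Tenc1, Kcnk5 and Gm15421 fell by 1.88, 2.46, 1.92, 0.98 and 1.24.

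**Figure D3:**
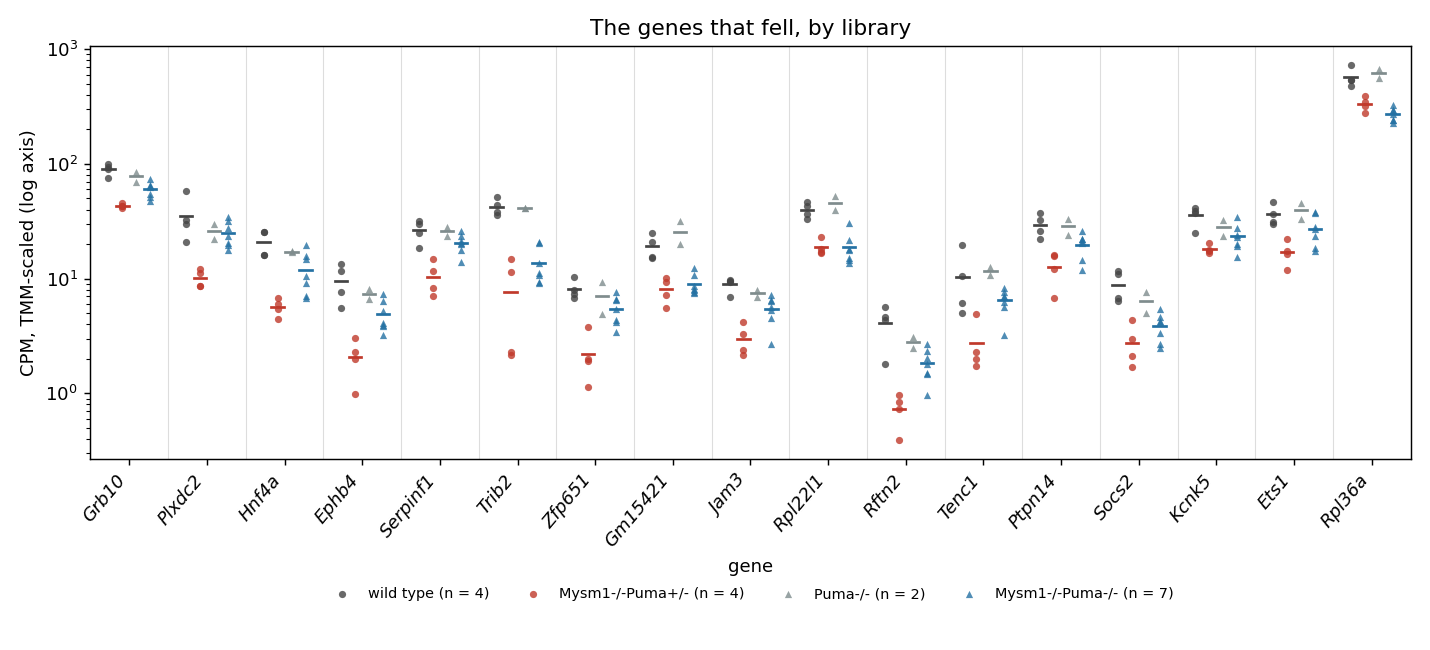
Each point is 1 library and each short bar a group mean, on a log axis of TMM-scaled CPM, for the 17 genes that fell in Mysm1-/-Puma+/- (red, n = 4) against wild type (grey circles, n = 4). The red points lie below the grey circles in every gene, while the Mysm1-/-Puma-/- libraries (blue, n = 7) lie wholly below their Puma-/- controls (grey triangles, n = 2) in 5 of the 17.

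Most genes of the stem cell lists did not pass, where 0.454% of all genes did. Of 28 stem cell transcription factors 0 passed, with a median of 0.06. Ndn, necdin, had the smallest p, at 4.48, 2.45, 2.54 and 5.09 CPM in A1 to A4 against 10.1, 8.49, 10.8 and 7.46 in wild type, 2 groups without overlap at an adjusted p of 0.0961. Mecom, which sustains long-term stem cells, was at 117, 73.0, 117 and 150 CPM against 79.8, 56.5, 113 and 125, and Gfi1, which restrains their cycling, at 7.32, 7.55, 12.3 and 10.8 against 5.16, 9.93, 5.42 and 21.9. Both were named after their values were seen, and in both the groups overlapped. Of 24 stem cell surface and niche genes Ephb4 and Jam3 fell and 0 rose, which is 8.33% lower beside 0.0812% of all genes. This list, like the others, was chosen with earlier results of these data known, and Jam3 kept its call only without A4 or D2. Of 19 lymphoid priming genes Ets1 was the 1 that fell, and the median was -0.26. Of 30 genes that write or erase ubiquitin on H2A besides Mysm1, 0 passed. Pcgf3, a Polycomb subunit, came nearest, at 62.9, 46.2, 56.9 and 54.5 CPM against 36.5, 31.4, 42.1 and 46.8, with A2 inside the wild-type range.

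**Figure D4:**
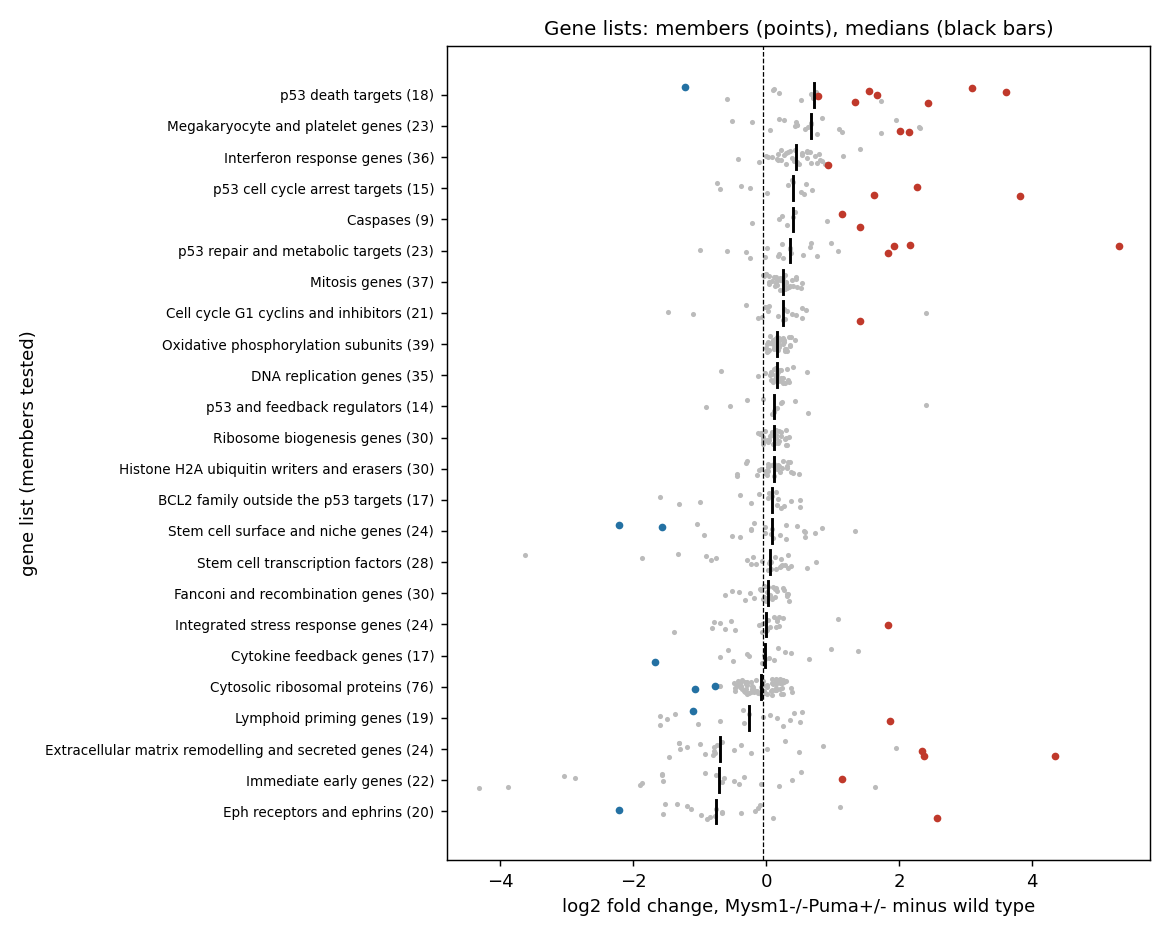
Each row is a gene list with the number of its members tested, each point 1 member at its log2 fold change of Mysm1-/-Puma+/- over wild type, and the black bar the median. Red points rose, blue points fell and grey points did not pass; the dashed line is the median of all genes (-0.05), and the p53 death targets hold the most red points.

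Among the remaining lists few genes were called. Interferon response genes gave 1 rise in 36, Igtp, an immunity-related GTPase, at 67.0, 56.3, 112 and 99.6 CPM in A1 to A4 against 43.0, 39.6, 45.2 and 48.4. Of the 36, 33 were positive, 8 had every A library above every wild-type library (2.97% of all genes did), and the median was 0.45. The call of Igtp ended without A3, A4, D1, D2 or D3-4, at adjusted p values of up to 0.102. Eph receptors and ephrins had 1 rise, Epha2, 1 fall, Ephb4, and a median of -0.76 over 20. Epha2 was at 21.1, 17.3, 11.6 and 6.84 CPM against 0.777, 1.36, 0.925 and 6.38, where W1 stood apart from the other wild-type libraries, and its adjusted p of 0.0209 went up to 0.0896 without D2 and exceeded 0.05 also without A1, A2, D1 or D3-4. Immediate early genes gave 1 rise in 22, Ier5, at 61.3, 48.8, 55.2 and 47.2 CPM against 22.9, 23.7, 16.8 and 33.3. Their median was -0.72, in a list whose member Fos was at 218 CPM in W1, alone among the 8 compared libraries. Of 24 genes of the integrated stress response Sesn2 rose, and of 17 cytokine feedback genes Socs2 fell. Of 39 oxidative phosphorylation subunits 0 passed and all 39 were positive, with a median of 0.16. Of 76 ribosomal protein genes 2 fell, 2.63% beside 0.0812% of all genes. In 8 of the 76 every A library lay below every wild-type library (2.43% of all genes did), and in 0 every A library lay above. Of 30 ribosome biogenesis genes and of 30 Fanconi and recombination genes 0 passed.

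The same Mysm1 genotype difference could be read in 7 libraries labelled Mysm1-/-Puma-/- (B1, B3, B5, B6, P1, P2, P3) against 2 labelled Puma-/- (C1-4 and C2-5). These libraries were outside the compared groups, and there both groups lack Puma. They were part of the same fit, so they also entered the gene filter, the scaling and the estimate of spread behind the main calls. Of 20944 genes 24 passed by edgeR, 0.115%, 19 higher and 5 lower, and the 7 and 2 libraries shared no range for 2439 genes, 11.6%. Of the 78 rises, 77 had the same sign, and 66 had all 7 libraries above both controls (4.91% of all genes did). By edgeR 65 of the 78 rises had an unadjusted p under 0.05, beside 2042 of all 20944 genes in either direction, and 19 passed. Their median log2 fold change was 0.99 there beside 1.39. Tpm4, tropomyosin 4, was the 1 rise with the opposite sign, at -0.09 beside 1.40. Of the 17 falls all had the same sign, but 5 had separate groups (6.74% of all genes were lower without overlap) and 3 passed, and their median was -0.54 beside -1.56. Over all genes 74.2% had the same sign in both comparisons.

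Cdkn1a was at 17 to 28.1 CPM in the 7 libraries and at 1.82 and 1.01 in the 2 controls, a log2 fold change of 4.00 ± 0.49 (adjusted p = 0.000194, edgeR). Psrc1 was at 53.4 to 91.3 CPM against 17.2 and 10.5, and Ccng1 at 225 to 318 against 88.8 and 89.7. Bbc3 was at 15.5 to 25.2 CPM against 2.68 and 2.10, a log2 fold change of 3.01 ± 0.30. Reads over Bbc3 were thus present in libraries labelled null for it, and its count does not check that label. Rpl36a was at 226 to 326 CPM against 676 and 558 and fell, by 1.19 ± 0.18 on the log2 scale (adjusted p = 0.00475). Plxdc2 was at 17.9 to 34.2 CPM against 30 and 22.3, with overlapping groups and a log2 fold change of -0.07 ± 0.30 beside -1.80. Grb10 was at 47.9 to 73.4 CPM against 85.5 and 69.8, a log2 fold change of -0.37 ± 0.16 beside -1.06. Whether these effects differed with the Puma genotype was tested directly. By edgeR 0 genes (0%) passed for the difference between the 2 comparisons, with 309 at an unadjusted p under 0.05, and 0 passed with DESeq2, limma voom or limma-trend. Plxdc2 had the smallest p, with a difference of -1.73 ± 0.42 in log2 fold change. With 2 control libraries on the Puma-null side, a p that misses the threshold does not show that the effects were alike.

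**Figure D5:**
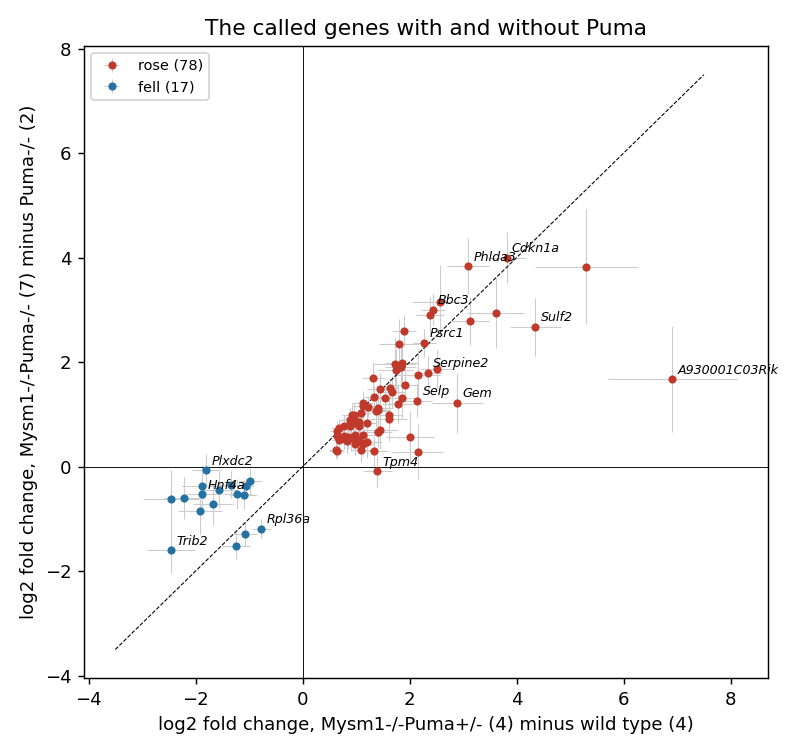
Each point is 1 of the 95 called genes, with its log2 fold change and SE in Mysm1-/-Puma+/- over wild type on the x axis and in Mysm1-/-Puma-/- over Puma-/- on the y axis; the dashed line marks equal values. Red points (78 rises) lie above 0 on the y axis except Tpm4, and blue points (17 falls) lie below 0, most of them nearer to 0 than to the dashed line.

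In the CD150-negative sort, 3 libraries labelled Mysm1-/-Puma+/- and 3 labelled wild type were set beside these in 1 fit of all 29 libraries. The names A1, A2, A3 and D2 occur in both sorts, so libraries of the 2 sorts may come from the same animals, which the fit treats as independent. Of 21830 genes 95 (0.435%) were called higher there and 42 (0.192%) lower. All 78 rises had the same sign there, 47 of them passed, and their median was 1.13. Of the 17 falls 16 had the same sign and 8 passed, with a median of -1.03. Socs2 was the exception, at 0.22. Over all 20944 genes 65.3% had the same sign in both sorts, and the median in CD150-negative cells was -0.08. For the difference between populations 2 of 21830 genes passed by edgeR (0.00916%), with 801 at an unadjusted p under 0.05. Ak1 was at 41.0 to 49.5 CPM in A and 7.81 to 17.2 in wild type among CD150-positive libraries, and at 53.6 to 58.4 against 3.5 to 4.58 among CD150-negative libraries. Its effect was 1.84 and 3.79 on the log2 scale, a difference of -1.94 ± 0.27 (adjusted p = 0.00179). The gene body of Ak1 overlaps Eng on the same strand, which was at 41.1 to 86.5 CPM in the 8 CD150-positive libraries compared. Whether Eng reads entered the Ak1 counts was not tested. Cox6b2, a cytochrome oxidase subunit best known from testis, had effects of 0.37 and 1.88, a difference of -1.52 ± 0.26 (adjusted p = 0.0396). The number of genes was 14 with DESeq2 and 0 without the P and W libraries.

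Genes carried along with the targeted loci were looked at by position. Within 10 Mb of Mysm1, 0 of 112 tested genes were called, beside 0.454% of all genes, and 4.46% had groups without overlap, beside 5.4%. Within 10 Mb of Bbc3, 0 of 288 were called and 3.12% did not overlap. Called genes numbered 0 of 9 within 1 Mb of Mysm1 and 0 of 44 within 1 Mb of Bbc3. Since 0.454% of all genes were called, counts of 0 in sets of this size do not show that these genes were unchanged. The called genes lay on every chromosome but 18 and Y, at shares of 0.137% on chromosome 13 to 0.92% on chromosome 1.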

How the data were processed

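Lineage-negative, cKit-positive, Sca1-positive marrow cells were sorted and sequenced, per the labels' protocols. Raw counts of reads for each gene were deposited by the authors, one table a library, which also hold gene length in bases, and a matrix of normalized CPM for 12578 genes, used here only as an alternative because its normalization is not given in the sources used here. Per the submitters' processing notes, reads were handled with FastQC, Trimmomatic 0.33, TopHat2 2.0.9, Bowtie 1.0.0, featureCounts and edgeR in R 3.4.2, with the build mm9. The annotation, the strand setting and the handling of multiply aligned reads are not given in the sources used here, so reads of overlapping genes or near-identical copies may be misassigned.

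The 17 CD150-positive libraries (4 genotype groups) were fitted together with edgeR 4.0.16 in R 4.3.3 (TMM scaling, filterByExpr by group, quasi-likelihood F test). Genes were called at a Benjamini-Hochberg adjusted p under 0.05 over all 20944 genes tested. Every adjusted p of a gene is from this test unless another is named. SE was approximated from the fold change and its F statistic (fold over root F). Levels are TMM-scaled CPM, and receptor-gene reads are CPM of library totals. Fits were tested on simulated counts.

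The comparison, the 24 gene lists and 13 marker lists, and the rule for named genes were chosen with earlier results of these data known. Genes were named as Mysm1, Bbc3, up to 30 rises and all falls by smallest p whose groups share no range (clone and predicted names left out), and up to 4 called members of each list, or the member with the smallest p. Trp53, Mecom, Gfi1, Pmaip1, Pf4, Gm16197, H2-Eb1, H2-Ab1, Pvt1, Tpm4, Clec4e, Gm15421 and A930001C03Rik were added after their values were seen. The values of 1 called gene are not reported here. No 2 replicates agreed within sampling noise (chi-square per degree of freedom of at least 27.37). Alternatives were RLE scaling, DESeq2 1.42.0, no count filter, limma 3.58.1 (voom with quality weights, and trend on the deposited CPM, log2 after adding 1), the naming series (P and W against A to D) as a covariate or left out, a replicate block, receptor reads as a covariate, the compared groups alone and each library left out. Leaving out B5, C2-5 and D2 together was chosen after seeing the data.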

Additional observations from a re-analysis of the deposited data

Results flagged for a closer look

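In 138 gene groups of 4 libraries each, 10 held 1 library far from the other 3 by Dixon's criterion (gap to the next library over the whole range), where chance flags about 1 in 20 groups. Among the A libraries these were A3 for Bbc3 (24.9 CPM), A3 for Cox6b2 (41.2 CPM) and A2 for Xist (348 CPM). Among the wild-type libraries they were D3-4 for Phlda3 (0.352 CPM, the lowest) and for Gdf15 (0.0881 CPM, the highest), D1 for Mgmt (4.88 CPM, the lowest), and D2 for Jam3 (6.89 CPM) and Casp12 (15.4 CPM), both the lowest. W1 was the highest wild-type library for Epha2 (6.38 CPM) and Fos (218 CPM).

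The effect of the Mysm1 genotype differed between the sorted populations for 2 genes in a test of the difference itself. In CD150-positive minus CD150-negative cells it was -1.94 on the log2 scale for Ak1 and -1.52 for Cox6b2. Both effects were larger in CD150-negative cells, and Cox6b2 was not called in CD150-positive cells.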

How the results depend on the processing

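Beside 95 genes (78 higher, 17 lower), DESeq2 called 244 (155 and 89) and a fit of the compared groups alone 52 (44 and 8). The lower count was 26 with limma-trend on the deposited CPM and 29 with receptor reads as a covariate. With the replicate block, 77 genes passed (64 higher, 13 lower). The sample numbers were not taken to pair libraries, since only 2 numbers are shared (deviations correlated at 0.0921 for A1 and D1 and 0.367 for A2 and D2). Leaving out 1 library gave 60 (without A1) to 107 (without A4) genes, 51 (without D2) to 84 higher and 7 (without A2) to 23 lower. The 14 rising p53 targets numbered 12 to 18 over all settings. No called gene changed sign in any setting that gave it a value. Of the called genes, 38 rises and 5 falls passed in every setting. The Puma-null comparison (24 genes) gave 107 with DESeq2, 58 with limma voom, 64 with limma-trend, 13 without the P and W libraries, 9 without B5, C2-5 and D2, and 16 to 30 without 1 library. Its C libraries were not left out singly, which would leave 1 control. The difference between Puma genotypes stayed at 0 genes in every setting, with a replicate block as well. The difference between populations (2 genes) gave 14 with DESeq2, 9 with limma voom, 5 with limma-trend, 1 without the count filter, 0 without the P and W libraries, and 1 to 3 without 1 library. The cause of these shifts was not tested. The naming series P and W holds 1 library of the compared groups, so no value within it could be given.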

Other observations

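Some further rises passed the test without any single library of the 8 and are given as values. Fyb, an adaptor of T cells and platelets, was at 176, 160, 199 and 198 CPM in A1 to A4 and at 113, 97.1, 87.2 and 86.3 in the wild-type libraries. Prrg4, a membrane protein with a Gla domain, was at 50.7, 38.1, 39.0 and 32.1 CPM against 18.5, 13.8, 17.6 and 23.4. Stap1, an adaptor of receptor kinases, was at 71.2, 70.1, 57.2 and 43.6 CPM against 34.3, 28.3, 31.3 and 19.5. Myo7a, an unconventional myosin, was at 39.4, 41.6, 32.7 and 26.4 CPM against 13.9, 19.9, 14.4 and 17.9. The clone gene 9030617O03Rik was at 59.4, 53.4, 45.0 and 29.3 CPM against 2.66, 3.44, 4.32 and 10.7. In these 5 genes no A library lay within the wild-type range. With the 8 libraries fitted alone, Stap1 and Myo7a lost their call by edgeR (adjusted p of 0.0554 and 0.0539). They were chosen after their values were seen.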
